A study of Mus musculus with 17 samples.

Results

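Thick ascending limb cells of the mouse kidney were picked out of 9 single-cell RNA-seq libraries by the transcripts of a few genes. A cell was taken with at least 200 genes detected, at most 30% of its UMIs (unique molecular identifiers, each a counted transcript) from mitochondrial genes, at least 2 UMIs of Slc12a1, at least 2 of Umod, at most 1 of Slc12a3, at most 1 of Aqp2 and 0 of Ptprc. This gave 513 cells of 68159 kept kidney cells (0.753%), and 98780 cells were kept in all 17 libraries of kidney and skin. By the same rule, 0 of 30621 kept skin cells were taken, and no skin cell held a UMI of Umod. The values that chose the cells are given below as a description, without a test.

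All mice were 8 weeks old and carried PDGFRb-Cre with the Z/EG reporter, which makes cells in which Cre has acted produce GFP, and the kidney libraries hold cells sorted for GFP after the tissue was minced and digested with Liberase TM. The SARAWT mice lack the SARA transgene. The SARATg mice carry a human ZFYVE9 (SARA) cDNA behind a lox-stop-lox cassette and the CAG promoter in Rosa26. Aristolochic acid was injected intraperitoneally at 5 mg/kg, 3 times a week for 3 weeks, to induce kidney fibrosis, and the controls received vehicle on the same schedule. There were 3 SARAWT vehicle, 3 SARAWT aristolochic acid, 2 SARATg vehicle libraries and 1 SARATg aristolochic acid library. PDGFRb-Cre acts in pericytes and other mural and stromal cells, and the paper reports its activity in leukocytes as well. The epithelial cells described here were found in a gate that was not set for epithelium. Whether Cre had acted in them was not tested.

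The thick ascending limb lies between the thin limb of the loop of Henle and the distal convoluted tubule. Its cells take up sodium, potassium and chloride from the lumen through NKCC2, the product of Slc12a1, and return potassium through ROMK (Kcnj1), while the sodium pump, with its subunits from Atp1b1 and Fxyd2, drives the flow. The lumen becomes positive, and calcium, magnesium and sodium cross between the cells through claudins. These cells also secrete uromodulin (Umod), the most abundant protein of normal urine, and make the precursor of epidermal growth factor (Egf). Aristolochic acid is a plant toxin that forms DNA adducts and is known for harm to the proximal tubule.

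Several libraries stood apart before any comparison of the members was made. SARAWT vehicle 3 had 11.5% proximal tubule cells among its kept cells, against 75.0% and 69.1% in the other SARAWT vehicle libraries. Its thick ascending limb cells also had the highest Lcn2 (1284 CPM, counts per 1000000 UMIs of the library's summed cells) and Mt1 (13915 CPM) of the 9 libraries, above every library given aristolochic acid. Much of this Lcn2 lay in 1 cell. Without the cell with the most tubule injury UMIs in each library, Lcn2 was at 239 CPM in SARAWT vehicle 3. It was then at 602, 186 and 560 in the SARAWT aristolochic acid libraries and at 577 in the library labelled SARATg aristolochic acid 1. Whether the treatment label of SARAWT vehicle 3 holds was not tested, and every value below that uses or leaves out this library rests on that label. Zfyve9, the mouse gene that encodes SARA, was at 201 CPM in thick ascending limb cells of the library labelled SARAWT aristolochic acid 1 and at 21.8 to 47.5 in the other SARAWT libraries. It was at 92.0 and 153 CPM in the SARATg vehicle libraries and at 32.1 in the library labelled SARATg aristolochic acid 1. In the rest of the kidney cells the same 2 aristolochic acid libraries again went against their genotype labels, at 166 and 20.4 CPM. The gene list of the files has no entry for human ZFYVE9, so that the reads behind these values come from whatever matched the mouse gene. Ddx3y, on the Y chromosome, was at 0 in SARAWT vehicle 2 and in the library labelled SARATg aristolochic acid 1, where Xist was at 759 and 1058 CPM, and Ddx3y was at 41.9 to 103 in the other libraries, so sex differed between libraries, within SARAWT vehicle and between the SARATg groups. The labels keep their names below. Counts of calls and some other results are also given without SARAWT vehicle 3, the library labelled SARAWT aristolochic acid 1 or the library labelled SARATg aristolochic acid 1. Most values of single genes with aristolochic acid are not given without the library labelled SARAWT aristolochic acid 1, and they rest on it. Nothing in the labels says that the libraries came from separate mice, so p-values measure the spread between these libraries, which may be technical.

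The number of members per library was uneven. SARAWT vehicle libraries 1, 2 and 3 held 57, 91 and 23 thick ascending limb cells, SARAWT aristolochic acid libraries 30, 7 and 40, SARATg vehicle libraries 28 and 46, and the library labelled SARATg aristolochic acid 191. These are 0.516%, 0.835% and 0.312% of kept cells with vehicle and 0.394%, 0.155% and 0.713% with aristolochic acid in SARAWT, and 0.412% and 0.698% with vehicle in SARATg. The library labelled SARATg aristolochic acid 1 stood above the rest at 2.47% (95% exact binomial interval 2.13% to 2.84%, counting error only). In SARAWT libraries the share was 0.421% ± 0.280 (SD, n = 3) with aristolochic acid and 0.554% ± 0.264 (SD, n = 3) with vehicle, and the groups overlapped. The difference of -0.134 percentage points was within the spread (two-sided exact permutation test p = 0.6, where 3 against 3 libraries cannot go below 0.1). It was -0.255 without SARAWT vehicle 3 (exact permutation p = 0.4) and -0.121 without the library labelled SARAWT aristolochic acid 1 (exact permutation p = 0.7). Among cells without Ptprc, the leukocyte gene, the direction turned: 2.12% with aristolochic acid against 0.907% with vehicle (exact permutation p = 0.4). The share is set by the sort and by every other cell type in the library, and the proximal tubule share ran from 5.90% to 75.0%. Against distal convoluted tubule cells, the next segment downstream, there were 25.8, 30.5 and 39.0 thick ascending limb cells per 100 with vehicle, 56.6, 17.9 and 75.5 with aristolochic acid in SARAWT, 147 and 64.8 with vehicle in SARATg, and 125 in the library labelled SARATg aristolochic acid 1.

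**Figure D1:**
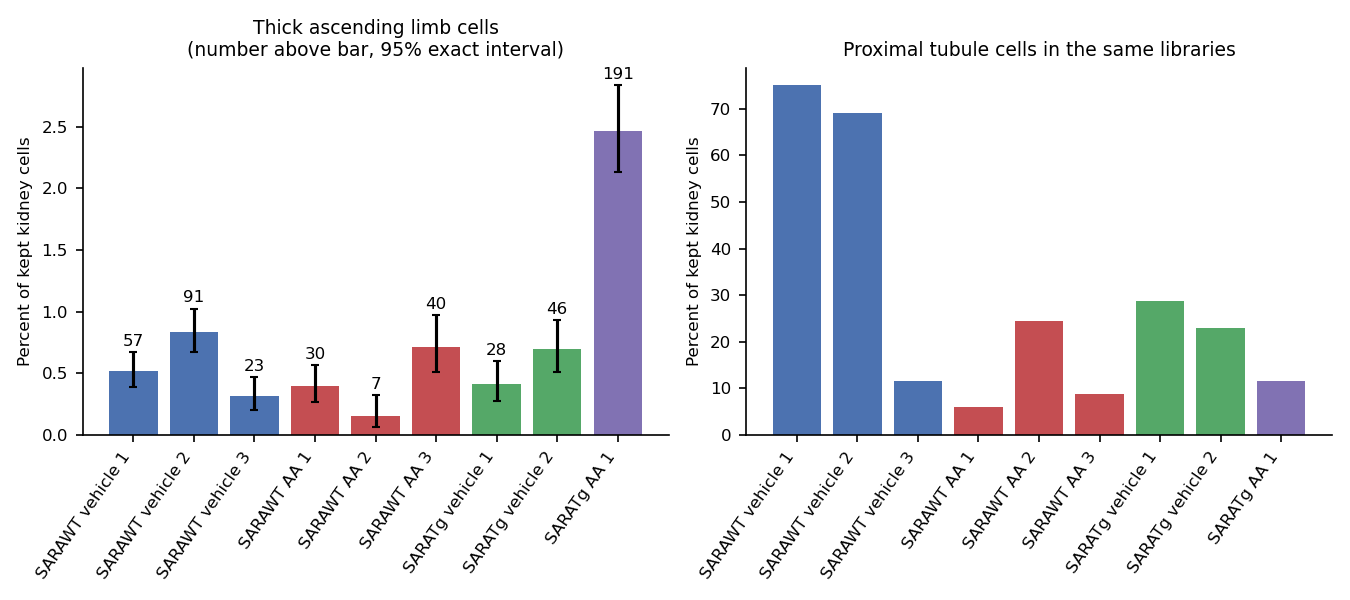
Left, thick ascending limb cells as a percent of kept kidney cells in each library (AA, aristolochic acid), with the number of cells above each bar and 95% exact binomial intervals. Right, proximal tubule cells as a percent of the same cells. The library labelled SARATg aristolochic acid 1 is highest on the left at 2.47%, and on the right SARAWT vehicle 3 (11.5%) lies far below SARAWT vehicle 1 and 2.

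The median member had 7005 UMIs (510 to 84180) and 2480 genes (362 to 9049). Median UMIs per member ran from 4457 to 9804 over the libraries and the median mitochondrial share from 6.19% to 21.4%, highest in the SARATg vehicle libraries. The summed members gave 38690 to 1494830 UMIs per library, so that 3 UMIs correspond to 2.01 to 77.5 CPM. The 7 cells of SARAWT aristolochic acid 2 gave the smallest sum, and this library was left out of the fits, which needed 10 cells. Barcodes shared with another kidney library were carried by 10 members, and 35 members were predicted doublets.

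Slc12a1 and Umod chose the cells, so their levels are a description and no check of the label. The median cell held 23 UMIs of Slc12a1 (chromosome 2, 125152505 to 125230002, plus strand, GRCm38) and 104 of Umod (chromosome 7, 119462711 to 119479282, minus strand). At the edge of the rule, 12 members had exactly 2 UMIs of Slc12a1 and 20 had 3, while 22 cells that met every other limit had 1 UMI and 323 had 0. For Umod, 3 members had 2 UMIs and 4 had 3, against 15 cells with 1 UMI and 35 with 0 that met the other limits. The limit on Ptprc also took out cells. Among cells that met both lower limits, whatever their Slc12a3 and Aqp2, 523 had no UMI of Ptprc. Of the others, 55 had 1, 21 had 2, 7 had 3 and 52 had more. Egf (chromosome 3, 129677565 to 129755316, minus strand), which the rule did not use, had a UMI in 481 of 513 cells (93.8%), with a median of 14, and is the marker here that lies outside the rule. Its mean over the libraries was 2547 CPM in these cells (932 to 5198). In distal convoluted tubule cells it was 1061 CPM (281 to 2706), so the ranges overlapped and Egf alone does not set the segment apart.

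The most abundant transcripts of the members, after Malat1, held products this segment is known for and transcripts of wider use. Mean levels over the 9 libraries were 12811 CPM for Umod, 10796 for Spp1 (osteopontin), 7281 for Fxyd2, 3440 for Slc12a1, 3427 for Atp1b1 and 3067 for Klk1, a kallikrein. Among them stood Fth1, a ferritin chain (7481 CPM), the metallothionein Mt1 (4870), Cox8a, a subunit of the respiratory chain (3543), and Tpt1 (3132). Kap, a transcript of the proximal tubule, averaged 3332 CPM and ran from 0 to 19877 over the libraries. Of 1521 genes with at least 50 CPM in every library, 481 were higher in thick ascending limb cells than in the other kept kidney cells in all 9 libraries. The 20 with the largest ratio in their lowest library held, beside the rule genes, Egf, the BMP antagonist Sostdc1, the phosphatase inhibitor Ppp1r1a, the prostaglandin E2 receptor Ptger3, the channel Kcnj1, the transcription factor Tfap2b, the Wnt antagonist Sfrp1, Cldn19 and the inositol transporter Slc5a3. The cells were picked by transcripts of the same segment, so these ratios are a description with no test.

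Most of these genes were shared with the distal convoluted tubule and few with the proximal tubule. Kcnj1 was at 359 CPM in thick ascending limb cells, 342 in distal convoluted tubule cells and 0.15 in proximal tubule cells. Tfap2b (202, 179 and 0.07) and Sfrp1 (529, 511 and 0.17) were likewise near equal in the 2 distal segments. Cldn19 stood apart at 219, 15.3 and 0.95, Ptger3 at 307, 85.8 and 2.33, and Sostdc1 at 1647, 512 and 1.41. Umod itself was at 3581 CPM in distal convoluted tubule cells, whose rule set no limit on it, and at 5.43 in proximal tubule cells, which were chosen to hold at most 1 UMI of it, so the latter value is set by that choice and is no comparison. Slc5a3 (766, 263 and 10.6) overlaps Mrps6 on the same strand of chromosome 16, so reads of the 2 genes cannot be told apart with certainty.

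**Figure D2:**
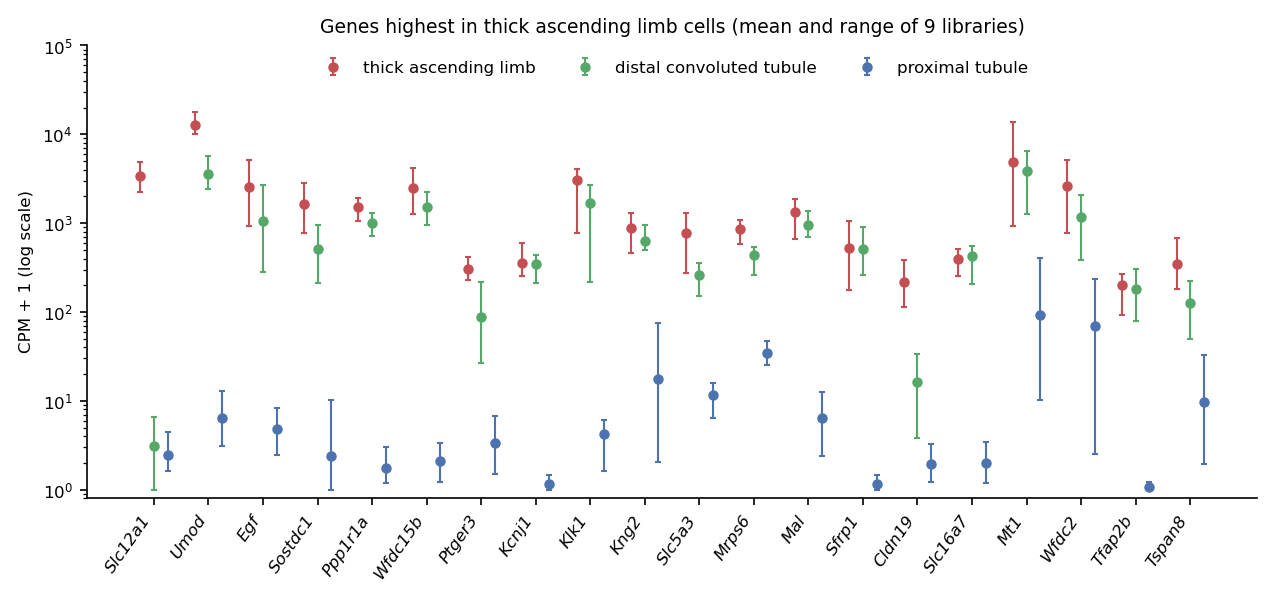
Levels (CPM plus 1, log axis) of the genes highest in thick ascending limb cells relative to other kidney cells, in thick ascending limb (TAL), distal convoluted tubule (DCT) and proximal tubule (PT) cells. Points are means and bars the range of 9 libraries. Tfap2b, Sfrp1 and Kcnj1 overlap between TAL and DCT cells, while Cldn19 does not.

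Transcripts of other cell types were present at levels that differed between libraries. The 16 proximal tubule markers together made 12687, 7669 and 141 CPM in the members of SARAWT vehicle 1, 2 and 3, 2000.5, 439 and 1013 with aristolochic acid, 28176 and 3902 in SARATg vehicle, and 616 in the library labelled SARATg aristolochic acid 1. Kap alone gave 19877 of the 28176 CPM in SARATg vehicle 1, and it was at 0 in the library labelled SARATg aristolochic acid 1. The part of sex in these sums was not tested. The 10 leukocyte markers were at 58.7, 24.3 and 114 CPM with vehicle and at 231, 77.5 and 318 with aristolochic acid in SARAWT, at 807 and 877 with vehicle in SARATg, and at 120 in the remaining library, with Ptprc at 0 by the rule. Endothelial markers ranged from 0 to 412 and stromal and mural markers from 0 to 520 over the libraries, and the podocyte markers from 0 to 22.2. Nphs1 and Wt1 were at 0 in every library, while Podxl or Synpo had UMIs in 6 of 9, and the podocyte sum reached 236% of that in the other kept cells in SARAWT vehicle 1, from 3 UMIs. Endothelial markers reached 264% of the level in the other kept cells in the library labelled SARAWT aristolochic acid 1 (123 UMIs). They reached 201% in SARAWT vehicle 1 (46 UMIs). Stromal and mural markers reached 168% in SARATg vehicle 2 (234 UMIs). Both sums were below that of the other kept cells in the remaining libraries. The sums alone do not tell fewer cells of a type from less RNA per cell. Counts per cell covered leukocyte, endothelial and stromal markers other than Cd74. More than 2 such UMIs were found in 1 of 57 members of SARAWT vehicle 1, where 1 cell held 46. In the library labelled SARAWT aristolochic acid 1 it was 4 of 30, with up to 48 in 1 cell. In SARATg vehicle 2 it was 6 of 46, with up to 236 in 1 cell.

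The main comparison asked what aristolochic acid changed in thick ascending limb cells of SARAWT mice, with 3 vehicle libraries against the libraries labelled SARAWT aristolochic acid 1 and 3. In the fit with all 3 vehicle libraries, no gene of 7307 passed an adjusted p of 0.05 (edgeR quasi-likelihood F test, 0.0% called), while the unadjusted p was under 0.05 for 556 (7.61%). With DESeq2 17 genes passed (0.233%; 11 higher, 6 lower). Without SARAWT vehicle 3, edgeR called 78 of 7586 genes (1.03%), of which 58 (0.765%) were higher and 20 (0.264%) lower, with 1048 (13.8%) at an unadjusted p under 0.05. Leaving out the library labelled SARAWT aristolochic acid 1 left 1 call of 7475 genes, and leaving out both libraries that go against their genotype label 1 of 7030 (0.0142%). The same 8 libraries were used for all 4 groups, so the groups share 1 estimate of the spread.

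Among genes of tubule injury the vehicle libraries differed from each other. Lcn2 (chromosome 2, 32384633 to 32388252, minus strand) encodes lipocalin 2, a protein that injured distal tubules release into urine. It was at 2.79, 12.8 and 1284 CPM in SARAWT vehicle 1, 2 and 3, and at 583 and 889 in the libraries labelled SARAWT aristolochic acid 1 and 3. The 7 cells of SARAWT aristolochic acid 2 gave 129. SARAWT vehicle 3 was thus above every other library, and the groups overlapped. Without the cell with the most tubule injury UMIs in each library, SARAWT vehicle 3 was at 239 CPM. The libraries labelled SARAWT aristolochic acid 1 and 3 were then at 602 and 560. With SARAWT vehicle 3, the log2 fold change of Lcn2 was 0.87 (SE 1.58, edgeR adjusted p = 0.904), and without it 6.39 (SE 1.12, edgeR adjusted p = 0.0263). Lcn2 had a UMI in 1.75%, 5.49% and 43.5% of members with vehicle and in 76.7%, 28.6% and 60.0% with aristolochic acid, against 0.04% to 2.39% of proximal tubule cells over all 9 libraries. With every cell thinned to 1500 UMIs these shares were 0.0%, 3.33% and 26.1% with vehicle and 43.3%, 28.6% and 27.5% with aristolochic acid. Median depth was 5480, 7933 and 6819 UMIs per member with vehicle, and 6565, 4457 and 9804 with aristolochic acid.

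A single large cell carried much of this signal in some libraries. In SARAWT vehicle 3, 1 cell of 37270 UMIs held 201 of 236 Lcn2 UMIs and 254 of 273 UMIs of Clu, which encodes the chaperone clusterin. In the library labelled SARAWT aristolochic acid 1, 1 cell of 34121 UMIs held 783 of 867 UMIs of S100a6 and 43 of 53 of Anxa1. In SARAWT aristolochic acid 3, 1 cell of 34371 UMIs held 291 of 303 UMIs of Sprr1a, 196 of 245 of Clu and 179 of 232 of Krt8. The cell with the most injury transcripts gave 44.8% of the list's UMIs in SARAWT vehicle 3, 37.8% and 31.3% in the libraries labelled SARAWT aristolochic acid 1 and 3, and 4.82% and 7.87% in SARAWT vehicle 1 and 2.

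The 38 tubule injury genes together made 3595, 3192 and 11575 CPM in SARAWT vehicle 1, 2 and 3 and 16895, 4807 and 10769 with aristolochic acid. Without the cell with the most injury transcripts in each library these sums were 3471, 2983 and 8014 with vehicle and 11857, 4680 and 8031 with aristolochic acid. The injury share of the median cell was 0.37%, 0.33% and 0.71% with vehicle and 0.91%, 0.51% and 0.78% with aristolochic acid. SARAWT vehicle 3 overlapped the aristolochic acid libraries on each of these measures, and SARAWT vehicle 1 and 2 were below all 3 of them.

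Of the 38 injury genes, 26 could be tested with all vehicle libraries. None passed the adjusted threshold, 25 had a log2 fold change above 0, and the median was 1.29 against -0.03 over all genes tested. Unadjusted p was under 0.05 for 15, all higher with aristolochic acid, where 3.93% of all genes were. In 12 both aristolochic acid libraries lay above all 3 vehicle libraries, against 9.89% of all genes tested. Without SARAWT vehicle 3, 12 of 27 rose, where 0.765% of all genes did, 22 had an unadjusted p under 0.05 and a higher level (7.26% of all genes), and the median was 2.97. Without the injury-richest cell of each library the median was 1.17 with all vehicle libraries, and 6 of 24 rose without SARAWT vehicle 3 as well (median 1.80), where 0.424% of all genes did. With both libraries that go against their genotype label left out, 19 of 22 were above 0, with a median of 0.95 and no call. The list and its direction were known from earlier work on these data and are not independent support.

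Epithelial keratins were among them. Krt8 was at 97.8, 64.0 and 196 CPM with vehicle and at 315 and 534 with aristolochic acid (77.5 in the 7-cell library), so the fitted groups did not overlap, with 179 of the 232 UMIs of SARAWT aristolochic acid 3 in 1 cell. Its log2 fold change was 1.99 (SE 0.46, edgeR adjusted p = 0.374), DESeq2 called it (log2 1.96, adjusted p = 0.0428), and without SARAWT vehicle 3 edgeR did too (2.55, adjusted p = 0.0228). Without the injury-richest cell of each library Krt8 was at 96.3, 62.4 and 102 CPM against 250 and 133, with a log2 fold change of 1.21 (edgeR adjusted p = 0.479), and the call without SARAWT vehicle 3 was lost (1.35, edgeR adjusted p = 0.129). Krt7 was at 344, 300 and 337 CPM with vehicle and at 935 and 592 with aristolochic acid, and passed with DESeq2 (adjusted p = 0.0479) but not with edgeR with all vehicle libraries (log2 1.27, adjusted p = 0.374) or without the third (adjusted p = 0.082).

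Lgals3, Tmsb10 and S100a11 of the same list did not overlap between the fitted groups. Lgals3, the gene of galectin 3, was at 131, 75.6 and 707 CPM with vehicle and at 838 and 1563 with aristolochic acid. Tmsb10, a thymosin that binds actin, was at 39.1, 53.8 and 223 against 600 and 493, and S100a11 at 209, 187 and 827 against 999 and 903. The 7-cell library was not fitted. Without the injury-richest cell of each library it had Lgals3, Tmsb10 and S100a11 at 223, 223 and 371 CPM. SARAWT vehicle 3 then had 724, 130 and 478. Each of the 3 genes rose without SARAWT vehicle 3, by log2 3.70, 3.60 and 2.37 (edgeR adjusted p = 0.0093 for all 3). Anxa1 and S100a6 were also called there, but SARAWT vehicle 1 and 2 together hold 1 UMI of Anxa1 and 3 of S100a6, so their fitted fold changes depend on the prior count and are not given. Havcr1, the gene of the kidney injury marker KIM-1 of the proximal tubule, was at or under 6.91 CPM in every library.

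**Figure D3:**
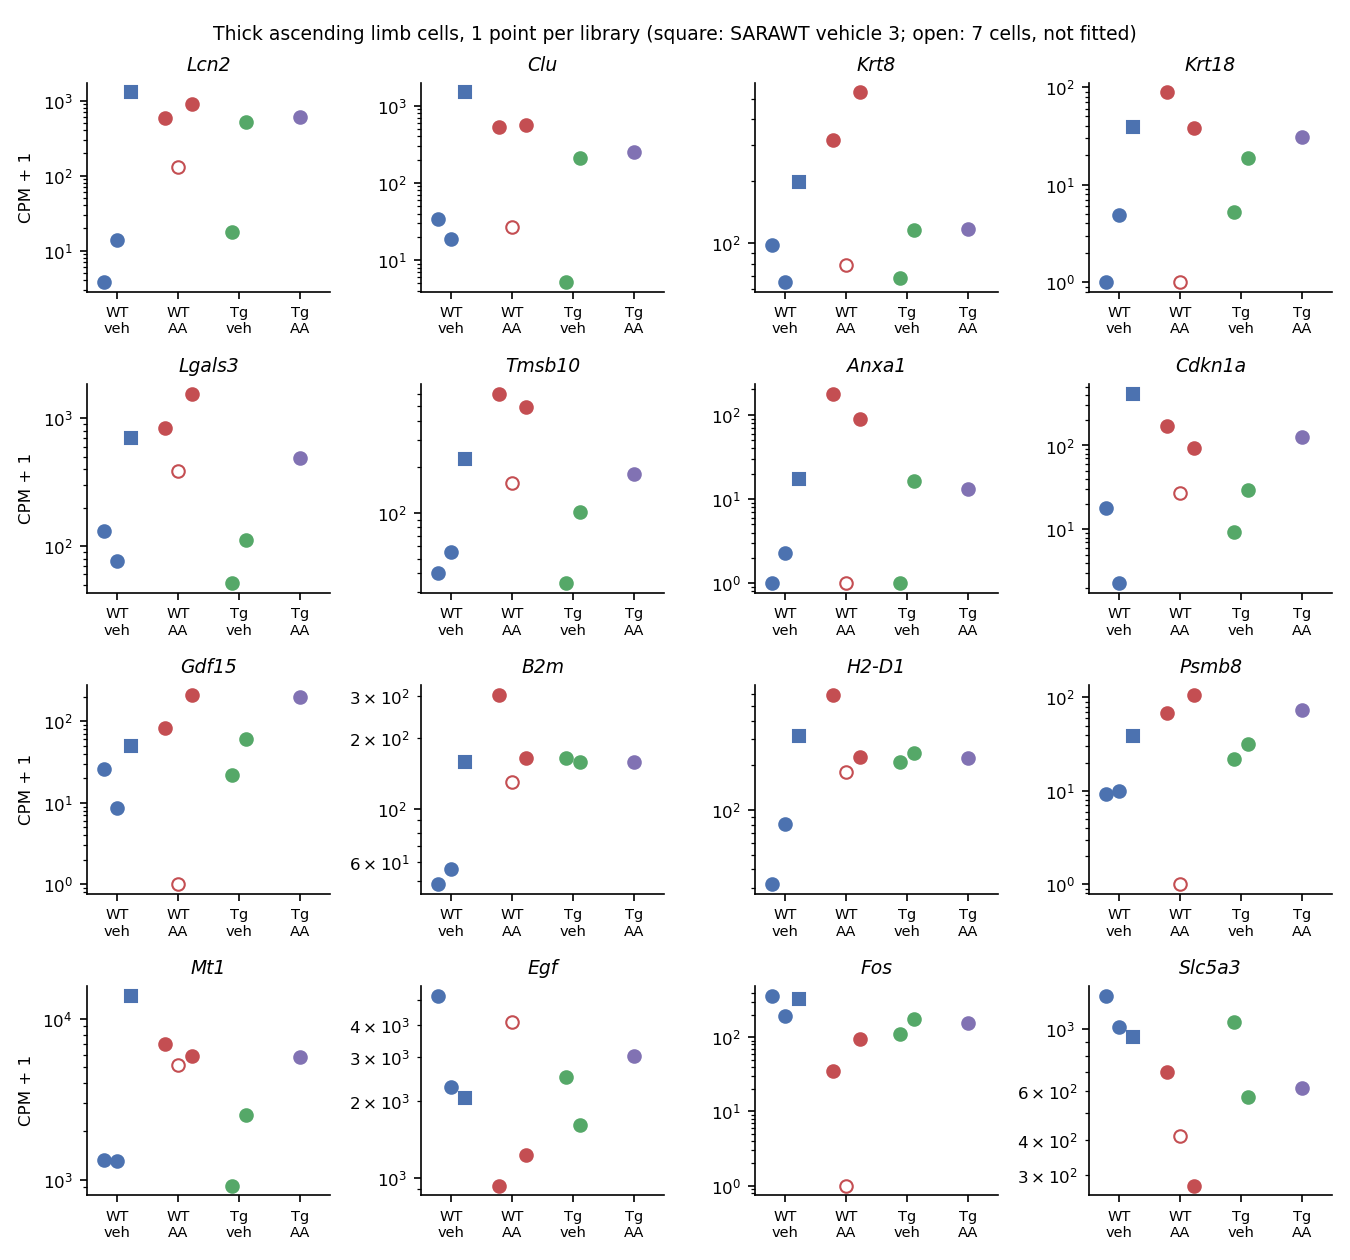
CPM plus 1 (log axis) of 16 genes in thick ascending limb cells, 1 point per library, by genotype (WT, SARAWT; Tg, SARATg) and treatment (veh, vehicle; AA, aristolochic acid). The square is SARAWT vehicle 3, and the open point is the 7-cell library that was not fitted. For Lcn2 the square (1284) lies above every other point, and it is at 239 without the cell with the most tubule injury UMIs. For Egf both fitted SARAWT aristolochic acid libraries (932 and 1227) lie below the 3 vehicle libraries.

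Genes of the interferon response and antigen presentation were the next list. Of 18 listed, 15 were tested and all 15 had a positive log2 fold change, with a median of 2.18 (all genes -0.03). No gene passed the adjusted threshold in edgeR. An unadjusted p under 0.05 with a higher level was found for 12 (3.93% of all genes tested), and in 6 both aristolochic acid libraries lay above all vehicle libraries (9.89% of all genes). Without SARAWT vehicle 3, 7 of 15 rose, where 0.765% of all genes did, and the median was 2.95. B2m, the light chain of MHC class I, was at 47.5, 55.1 and 158 CPM with vehicle and at 302 and 163 with aristolochic acid. It rose by log2 2.23 without SARAWT vehicle 3 (SE 0.35, edgeR adjusted p = 0.0228). Psmb8, a subunit of the immunoproteasome, was at 8.38, 8.96 and 38.1 against 67.0 and 106 (log2 2.67, edgeR adjusted p = 0.328, and 3.40 without SARAWT vehicle 3, adjusted p = 0.0128). H2-Ab1, a chain of MHC class II, was at 5.59, 8.96 and 16.3 CPM with vehicle and at 83.8 and 57.6 with aristolochic acid, and passed with DESeq2 (adjusted p = 0.0326). The log2 fold changes of H2-Ab1, H2-Aa and Cd74 were 2.94, 2.98 and 2.18 in the fit with all vehicle libraries, and turned to -1.93, -2.47 and -2.59 where the rule was applied to cells thinned to 1500 UMIs. That setting also read the Ptprc limit from the thinned counts and then summed the full counts, so cells with Ptprc UMIs could enter. It took 24 cells in SARAWT vehicle 3, where the main rule took 23. The turn of sign is thus no check of depth alone.

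Leukocyte markers moved with this list, at 58.7, 24.3 and 114 CPM against 231 and 318, and Cd74 stands in both lists. Where cells were limited to at most 2 UMIs of the leukocyte, endothelial and stromal markers other than Cd74, 12 of 13 interferon and MHC genes were above 0 with a median of 1.88, 8 had an unadjusted p under 0.05 and higher level (3.52% of all genes in that fit), and none passed the adjusted threshold. The median was 1.53 (15 of 15 above 0) with both libraries that go against their genotype label left out.

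Of 30 targets of p53, the factor that DNA damage activates, 15 could be tested. None was called with all vehicle libraries (median 0.16), and 2 rose without SARAWT vehicle 3, where 0.765% of all genes did. Cdkn1a, which encodes the cell cycle inhibitor p21, was at 16.8, 1.28 and 414 CPM with vehicle and at 171 and 92.1 with aristolochic acid. SARAWT vehicle 3 was again the highest library, and the log2 fold change was 0.09 with it and 4.33 without it (edgeR adjusted p = 0.0237). Gdf15, a secreted stress signal, was at 25.1, 7.68 and 49.0 against 80.4 and 210, without overlap (log2 2.83, edgeR adjusted p = 0.406, DESeq2 adjusted p = 0.0479, and 3.49 without SARAWT vehicle 3, edgeR adjusted p = 0.0307). Mdm2, the p53 target that degrades p53, was at 67.0, 28.2 and 65.3 against 36.9 and 62.2. Of 16 cell cycle genes none reached the level needed for a test, and Mki67 and Top2a had a UMI in at most 1 member of any library.

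Egf and the immediate early genes Fos and Jun were below every SARAWT vehicle library in both fitted aristolochic acid libraries, as were 12.9% of all genes tested. Egf was at 5198, 2281 and 2052 CPM with vehicle and at 932 and 1227 with aristolochic acid, without overlap between the fitted groups, but the 7-cell library gave 4110. The log2 fold change was -1.46 (SE 0.43, edgeR adjusted p = 0.511, DESeq2 adjusted p = 0.0479), and -1.66 without SARAWT vehicle 3 (edgeR adjusted p = 0.108). Fos was at 360, 190 and 327 against 33.5 and 94.4, and Jun at 908, 745 and 762 against 255 and 343, with no overlap in either gene. Their log2 fold changes were -2.04 and -1.35 (edgeR adjusted p = 0.374 and 0.379), and DESeq2 called both (adjusted p = 0.0326 and 0.0418). Of the 19 immediate early genes tested, 11 were below 0 with all vehicle libraries and the median was -0.45, and without SARAWT vehicle 3 the median was 0.31. These genes are also known to respond to tissue digestion, and the part of handling in these values was not tested.

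**Figure D4:**
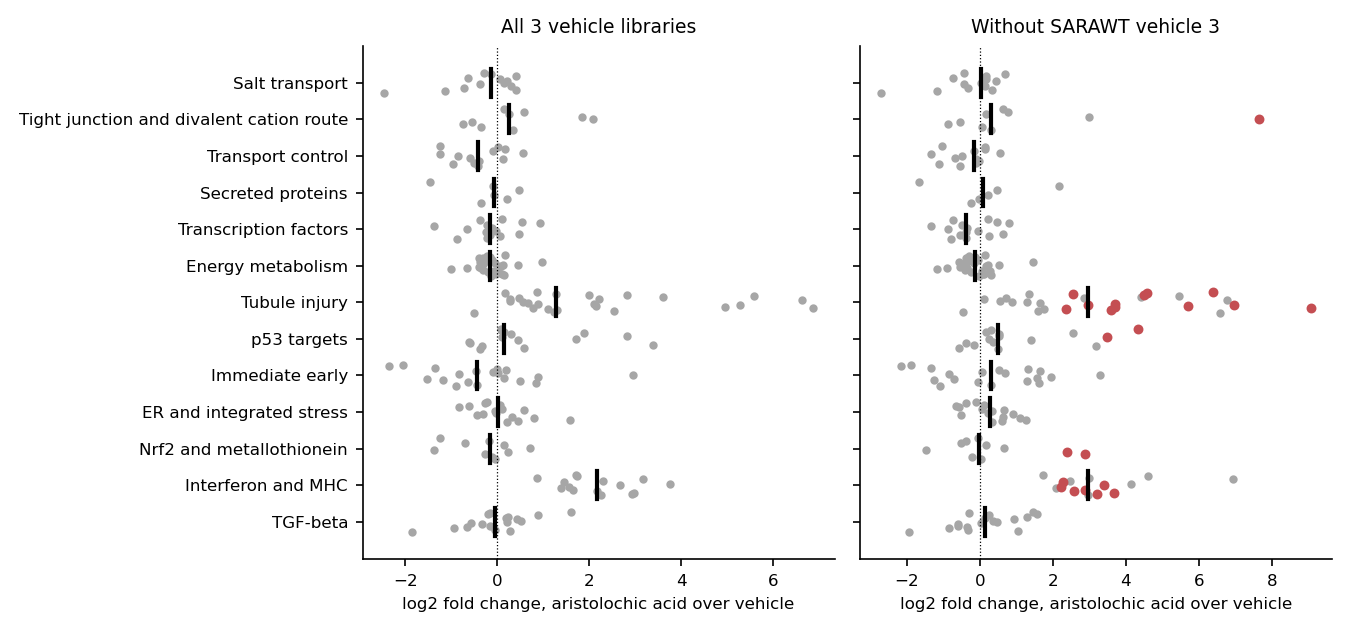
Log2 fold change of SARAWT aristolochic acid over SARAWT vehicle in thick ascending limb cells, 1 point per gene for 13 gene lists, with all 3 vehicle libraries (left) and without SARAWT vehicle 3 (right). Black bars are list medians and red points are genes past an adjusted p of 0.05 (edgeR). No point is red on the left, and the medians of tubule injury (1.29) and interferon and MHC (2.18) lie farthest from 0.

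The transport machinery showed no call with aristolochic acid. Of 14 salt transport genes 13 were tested, with a median log2 fold change of -0.13 with all vehicle libraries and 0.04 without SARAWT vehicle 3. Kcnj1 was at 497, 347 and 256 CPM with vehicle and at 255 and 313 with aristolochic acid (log2 -0.29, SE 0.31). The transport genes overlapped between groups, except for 4 of the 13 that lay below all vehicle libraries in both aristolochic acid libraries, where 12.9% of all genes did so. One of the 4 was Slc5a3, at 1316, 1014 and 936 against 700 and 274 (log2 -1.12, edgeR adjusted p = 0.615). Slc12a1, a gene of the rule and so not tested, was at 4855, 3574 and 3194 CPM with vehicle and at 3126 and 2427 with aristolochic acid, and Umod at 14650, 11105 and 12630 against 11125 and 10478.

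The genes of transport control and of the paracellular route were also tested. None of 13 transport control genes passed (median -0.42, and -0.16 without SARAWT vehicle 3). Wnk1, a kinase upstream of NKCC2, was at 718, 466 and 778 CPM with vehicle and at 154 and 361 with aristolochic acid (log2 -1.24, SE 0.44, edgeR adjusted p = 0.615). Of 9 tight junction genes tested none passed with all vehicle libraries (median 0.27), and Cldn4 did without SARAWT vehicle 3. Cldn4 was listed at 0 in SARAWT vehicle 1 and 2, at 49.0 in vehicle 3 and at 43.6 and 41.4 with aristolochic acid. Cldn10, Cldn16 and Cldn19, the claudins that set this segment's sodium and divalent cation permeability, had log2 fold changes of 0.27, 0.15 and 0.59, and none was called. The lists of energy metabolism (28 tested), transcription factors (15), ER and integrated stress (16) and TGF-beta (17) held no call in either fit, with medians of -0.15, -0.16, 0.02 and -0.05. Among Nrf2 and metallothionein genes (10 tested), Mt1 and Mt2 rose without SARAWT vehicle 3, where 0.765% of all genes did. Mt1 was at 1324, 1306 and 13915 CPM with vehicle and at 6973 and 5883 with aristolochic acid, so that the library left out was the highest, and the log2 fold change was 0.24 with it and 2.39 without it.

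Whether the effect of aristolochic acid differed from that in the proximal tubule was tested within SARAWT libraries, with the library as a block. Of 11674 genes, 3 differed (0.0257%; edgeR), all with the more positive effect in thick ascending limb cells, and 881 (7.55%) had an unadjusted p under 0.05. Among them was Cxcl12 (chromosome 6, 117168535 to 117181367, plus strand), the chemokine that binds CXCR4. In thick ascending limb cells it was at 25.1, 24.3 and 10.9 CPM with vehicle and at 93.8 and 89.8 with aristolochic acid, and the 7-cell library gave 103. In proximal tubule cells of the same libraries it was at 18.8, 17.7 and 4.73 with vehicle and at 5.50 and 8.45 with aristolochic acid, with 5.48 in SARAWT aristolochic acid 2. Every aristolochic acid library was thus above every vehicle library in thick ascending limb cells, and the groups overlapped in proximal tubule cells. In the 7-cell library 3 UMIs amount to 77.5 CPM. The 2 effects differed by log2 3.50 (SE 0.54, edgeR adjusted p = 0.0169, and DESeq2 called it too). Without the library labelled SARAWT aristolochic acid 1 the difference was 3.20 (edgeR adjusted p = 0.309), without SARAWT aristolochic acid 3 it was 3.73 (edgeR adjusted p = 0.154), and without the library block 3.38 (edgeR adjusted p = 0.828).

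Cxcl12 was spread over cells in the fitted aristolochic acid libraries, while its value in the 7-cell library came from 1 cell. It had a UMI in 6 of 57, 11 of 91 and 1 of 23 members with vehicle and in 10 of 30, 1 of 7 and 17 of 40 with aristolochic acid, with at most 7 UMIs in any 1 of these cells. In proximal tubule cells the shares were 19.8%, 15.5% and 4.95% with vehicle and 6.24%, 3.92% and 6.17% with aristolochic acid. The SARATg libraries, which this test did not use, gave 12.5 and 15.5 CPM with vehicle and 69.6 in the library labelled aristolochic acid 1, where 59 of 191 members had a UMI. Within thick ascending limb cells of SARAWT alone the log2 fold change was 2.13 (SE 0.36, edgeR adjusted p = 0.198), and 1.99 without SARAWT vehicle 3 (adjusted p = 0.0263). Levels of Cxcl12 in distal convoluted tubule cells are not given here. The test against those cells called 0 of 8734 genes (edgeR), so no difference from the nearest segment downstream is read from Cxcl12.

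The other genes called were Sprr1a and S100a6, each carried by 1 cell. Sprr1a was listed at 0, 0 and 5.44 CPM with vehicle and at 33.5 and 698 with aristolochic acid, and S100a6 at 2.79, 2.56 and 54.4 against 2905 and 92.1. Without SARAWT vehicle 3 the comparison with proximal tubule cells called 260 genes (2.28%; 60 with the more positive and 200 with the more negative effect in thick ascending limb cells).

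Against the distal convoluted tubule 0 of 8734 genes differed (edgeR, 0.0%), with 401 (4.59%) at an unadjusted p under 0.05, and DESeq2 called 1. Without the library labelled SARAWT aristolochic acid 1 edgeR called 18 of 9558 genes (0.188%; 16 with the more positive and 2 with the more negative effect in thick ascending limb cells), and without SARAWT aristolochic acid 3 it called 3 of 9710 (0.0309%). In those fits the lone aristolochic acid library is assumed to vary like the vehicle libraries. The effects side by side, which share the library structure, were log2 0.87 in thick ascending limb, 1.79 in proximal tubule and 3.26 in distal convoluted tubule cells for Lcn2, and -1.46, -0.15 and -1.39 for Egf. For Gdf15 they were 2.83, 1.74 and 3.04, and for B2m 1.57, 1.52 and 0.12. These values rest on SARAWT vehicle 3, and no order of the segments is read from them. Without it Lcn2 gave 6.39 in thick ascending limb cells, while SARAWT vehicle 1 and 2 held it at 0.03 and 0.73 CPM in proximal tubule and at 0 and 1.09 in distal convoluted tubule cells, so that no fitted size is given there. For B2m the values without it were 2.23, 2.90 and 2.83, for Gdf15 3.49, 2.75 and 3.21, and for Egf -1.66, -0.11 and -1.76. Within proximal tubule cells 0 of 14394 genes and within distal convoluted tubule cells 0 of 9347 passed with edgeR (0.0% in both), with 1515 (10.5%) and 769 (8.23%) at an unadjusted p under 0.05. Without SARAWT vehicle 3 the calls were 558 of 14642 (3.81%) and 20 of 9209 (0.217%).

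The comparison of genotypes asked whether SARATg and SARAWT cells differed with vehicle. Of 7307 genes 9 rose in SARATg (0.123%; edgeR) and none fell, and 371 (5.08%) had an unadjusted p under 0.05. The 9 were H2-Eb1, H2-Ab1, H2-Aa and Cd74 of MHC class II, the complement genes C1qa and C1qb, the Fc receptor chain Fcer1g, the growth factor binding protein Igfbp5, and Gdpd3, a lysophospholipase. Apart from Igfbp5 and Gdpd3 these are genes of antigen-presenting and phagocytic cells. Cd74 was at 564 and 400 CPM in SARATg and at 50.3, 14.1 and 59.9 in SARAWT (log2 3.85, SE 0.50, edgeR adjusted p = 0.0147). Single cells held most of it, 131 of 135 UMIs in SARATg vehicle 1 and 102 of 180 in SARATg vehicle 2, and likewise 33 of 33 and 18 of 29 UMIs of C1qa and 26 of 29 and 118 of 156 of Igfbp5. Leukocyte markers were at 807 and 877 CPM in these libraries. With cells limited to at most 2 UMIs of leukocyte, endothelial and stromal markers no gene of 5904 was called, and Cd74 turned to -0.61 and H2-Aa to -1.58. The median mitochondrial share of members was 21.4% in SARATg vehicle 1 and 16.04% in SARATg vehicle 2, against 6.19% to 12.5% in SARAWT vehicle. With cells limited to at least 500 genes and a mitochondrial share of at most 20%, no gene of 6573 was called. With vehicle libraries fitted alone, 0 of 5367 genes were called. Without SARAWT vehicle 3 the count was 9 of 7586 (0.119%), without SARATg vehicle 2 it was 3, and without SARAWT vehicle 1 or 2 it was 0.

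Gdpd3 was the 1 called gene that many cells shared in both SARATg libraries. It was at 66.9 and 79.9 CPM in SARATg and at 0, 1.28 and 10.9 in SARAWT, where the 3 libraries held 3 UMIs in all, so that its fitted fold depends on the prior count. A UMI was found in 7 of 28 and 16 of 46 members in SARATg and in 0 of 57, 1 of 91 and 2 of 23 in SARAWT. With aristolochic acid it was at 50.3, 25.8 and 23.0 in SARAWT and at 53.5 in the library labelled SARATg. Proximal tubule cells gave a like order, with a UMI in 0.894%, 2.95% and 11.8% of cells of SARAWT vehicle, 23.1% and 29.7% of SARATg vehicle and 29.6%, 12.8% and 15.6% of SARAWT aristolochic acid. Of the other lists, the salt transport genes had a median log2 difference of -0.09 (13 tested, 0 called) and the tubule injury genes of -0.51 (26 tested, 0 called), against -0.00 over all genes.

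The difference between genotypes in the effect of aristolochic acid rests on the library labelled SARATg aristolochic acid 1, the only one of its group. No gene of 7307 passed with edgeR (0.0%), 276 (3.78%) were at an unadjusted p under 0.05, and with DESeq2 6 passed, all lower. On simulated counts at this design 0% of genes changed by a log2 fold of 2 were recovered, so a difference of that size would not have been detectable. The level of Lcn2 in that library was 601 CPM, against 16.7 and 517 in SARATg vehicle, and that of Egf 3024 against 2484 and 1612.

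Members differed among themselves in their claudins. In this segment Cldn10 (chromosome 14, 118787908 to 118875489, plus strand) makes a sodium-selective path. Cldn16 (chromosome 16, 26463135 to 26482765, plus strand), with Cldn19, makes a path for calcium and magnesium. In the mouse Cldn10 and Cldn16 are known to occupy different cells of the segment. Counts are per gene and do not separate transcript forms. Of the 513 cells, 164 had a UMI of Cldn10 alone, 186 of Cldn16 alone, 127 of both and 36 of neither. A UMI does not show that the cell itself made the transcript. Cldn10 had a UMI in 65.6% to 91.7% of proximal tubule cells, against 28.6% to 89.3% of members. Leukocytes, here any kept cell with a UMI of Ptprc and no limit on tubule genes, had one in 3.48% to 28.3%, highest in SARAWT vehicle 1 and 2. Some of these cells also met the lower limits on Slc12a1 and Umod. Cldn16 had one in 0.0% to 0.41% of proximal tubule cells and in 0.10% to 0.72% of leukocytes, against 21.4% to 82.5% of members. The median leukocyte held 3531 to 5569 UMIs. The part of free RNA in the counts of Cldn10 was not tested, in members, proximal tubule cells or leukocytes. The counts in proximal tubule cells may be their own transcripts. Summed Cldn10 was lower in cells with a Cldn16 UMI in 8 of 9 libraries, for example 597 against 1483 CPM in SARAWT vehicle 2 and 518 against 1206 in the library labelled SARATg aristolochic acid 1, and higher in SARATg vehicle 1 (1375 against 1088, from 6 and 22 cells). Cells with a Cldn16 UMI had the higher median depth in 8 of 9 libraries, from 7933 UMIs against 7894 in SARAWT vehicle 2 to 8726 against 5107 in the library labelled SARAWT aristolochic acid 1, and the lower one in the 7-cell library. The split reads the same counts as the ratios below, so these are described without a test.

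In the 5 libraries with at least 10 cells on each side, 3273 genes passed a limit of 50 CPM, which they did not need to meet in every library. Ptgds, for example, was at 0 CPM with and 47.9 without Cldn16 in SARAWT vehicle 1. Of the 3273 genes, 230 (7.03%) were higher in cells with Cldn16 in all 5 libraries and 101 (3.09%) lower in all 5. Some genes fall on 1 side in all 5 libraries with no difference between the cells, and that number was not estimated, so the genes named next are examples and not calls. Higher in all 5 were Foxq1, a forkhead factor (median log2 ratio 1.82, range 1.73 to 3.21), the potassium channel subunits Kcnj10 (1.18) and Kcnj16 (0.73), the calcium-sensing receptor Casr (0.96), the parathyroid hormone receptor Pth1r (0.72), the kinase Wnk1 (1.02) and Hoxd8 (0.76). Lower in all 5 were Cldn10 (-1.30), Ptger3 (-0.78), the creatine kinase Ckb (-0.77), the prostaglandin D synthase Ptgds (-2.39), Nccrp1 (-2.60) and Fxyd2 (-0.69). Kcnj1 had a median log2 ratio of 0.14 and Cldn19 of 0.09, with signs that differed between libraries. Slc12a1 was at -0.07, but the rule required it in every member, so its presence on both sides was set by that choice.

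**Figure D5:**
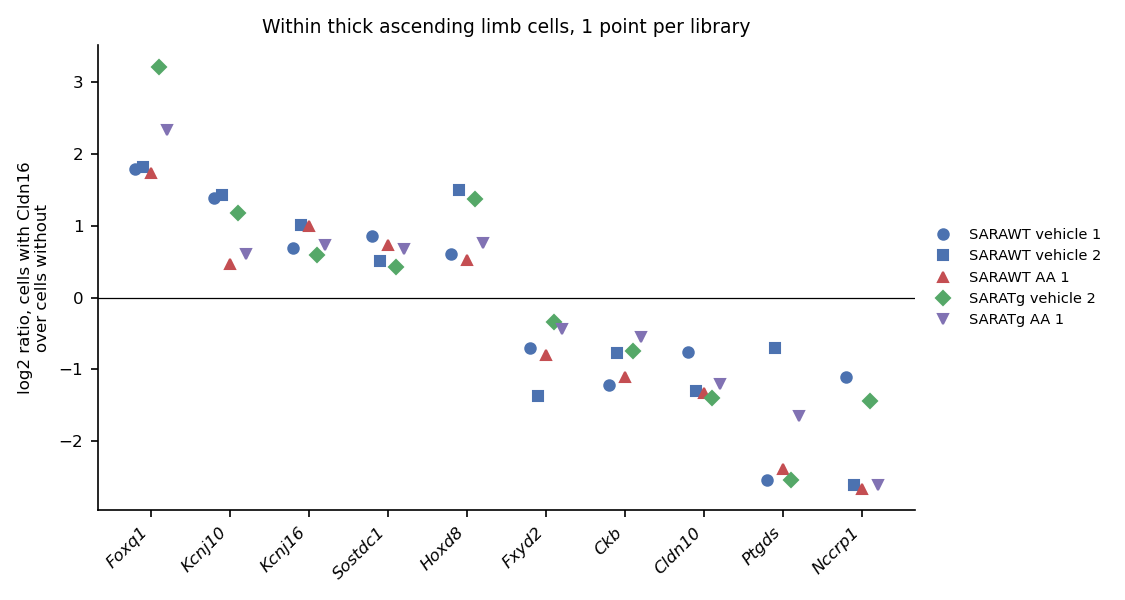
Log2 ratio of CPM in thick ascending limb cells with a Cldn16 UMI over those without (10 CPM added), 1 point per library for the 5 libraries with at least 10 cells on each side (AA, aristolochic acid). Foxq1, Kcnj10, Kcnj16, Sostdc1 and Hoxd8 lie above 0 in all 5, and Fxyd2, Ckb, Cldn10, Ptgds and Nccrp1 below 0 in all 5.

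The macula densa, the plaque of thick ascending limb cells that senses salt beside the glomerulus, was looked for by its markers. Of its 6 listed genes 3 could be tested, and Nos1, the neuronal nitric oxide synthase that defines it, had UMIs in 1 of the 513 cells, which limits cells with a UMI and not cells that use the gene. This cell, in SARATg vehicle 2, held 84180 UMIs, of which 52 were Nos1, 170 Pappa2 and 18 Ptgs2. It also held 86 of the 93 Clu UMIs of that library. It had the most UMIs of all members, where the median was 7005, and its counts do not show that the barcode held only 1 cell. Pappa2, another listed gene, had a UMI in 2 of 40 members of SARAWT aristolochic acid 3, where 1 cell held 25 of 26 UMIs, in 1 of 28 of SARATg vehicle 1 and in 2 of 191 of the library labelled SARATg aristolochic acid 1.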

How the data were processed

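Droplet-based single-cell RNA-seq (10x Genomics 3′ v3) was measured in 9 kidney libraries. The deposited values are raw UMI counts for each gene in each called cell. Per the labels, the authors aligned and counted the reads with Cell Ranger 3.0.2 on mm10, and the submitters' processing notes also name Seurat 2.3.4. No paper text describes the kidney experiment, and tests were chosen for counts. Positions are on GRCm38 with GENCODE vM21.

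UMIs of the cells that met the rule were summed per library, and 8 libraries with at least 10 members entered 1 fit of 4 groups. Sums were tested with edgeR 4.0.16 in R 4.3.3 (two-sided quasi-likelihood F test after filterByExpr and TMM scaling, Benjamini-Hochberg over all genes tested, threshold 0.05), with DESeq2 1.42.0 as an alternative. CPM are counts per 1000000 UMIs of a library's summed members. Proximal tubule cells (Slc34a1 at least 2 and Lrp2 at least 1 UMI, Slc12a1, Umod, Slc12a3 and Aqp2 at most 1, Ptprc 0) and distal convoluted tubule cells (Slc12a3 at least 2, Slc12a1 and Aqp2 at most 1, Ptprc 0) passed the same limits on genes and mitochondrial share, and the differences in effect were tested as interactions of class and treatment. Genes of the rule and mitochondrial genes stayed in the fits and out of counts of calls. Percentages of members were set against each other by exact permutation of the libraries. Doublets were predicted with scrublet in scanpy 1.11.5 at 0.8% per 1000 cells and left out only as an alternative. Intervals and floors of 3 counts cover counting error only. Standard errors of log2 fold changes are the estimate divided by the root of the F statistic.

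The members and gene lists were chosen with earlier results of these data known. Genes are named if they are in a list, if they are among up to 15 per direction with the largest change past the threshold, at least 10 CPM in 1 group and no overlap between libraries, or, as description, if they are among the 15 of highest level or the 20 of largest smallest-library ratio at 50 CPM or more. Zfyve9, Xist and Y-linked genes served as label checks. The carrier cells, Havcr1 beside its list, and the genes named for the claudin split were chosen after their values were seen. Each fit was tested on simulated counts in which 200 genes differed by a log2 fold of 2, and 51.5% were recovered for aristolochic acid (4.63% false calls), 52.5% for genotype (7.89%), 0% for the genotype difference in effect (2 calls, 100% false), 22% against proximal tubule cells (2.22%) and 49.5% against distal convoluted tubule cells (14.7%). Alternatives covered the normalization, the filter, the gate, doublets, shared barcodes, replicate blocks and each library left out. Some items are not reported here.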

Additional observations from a re-analysis of the deposited data

Results flagged for a closer look

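Of the values reported, 3 were picked out because the effect of aristolochic acid in SARAWT differed between thick ascending limb cells and proximal tubule cells by a test of the difference itself (edgeR, interaction with a library block). The difference was log2 3.50 for Cxcl12 (adjusted p = 0.0169), 6.12 for S100a6 (adjusted p = 0.0456) and 9.77 for Sprr1a (adjusted p = 0.00947), each with the more positive effect in thick ascending limb cells. Cxcl12 was higher in 2 of 2 fitted aristolochic acid libraries than in all 3 vehicle libraries, and its difference ran from 3.20 to 3.81 over the alternatives. Its call was lost without the library labelled SARAWT aristolochic acid 1 (edgeR adjusted p = 0.309), without SARAWT aristolochic acid 3 (edgeR adjusted p = 0.154) and without the library block (edgeR adjusted p = 0.828). S100a6 fell to 3.77 and lost its call without the library labelled SARAWT aristolochic acid 1 (edgeR adjusted p = 0.309), in which 1 cell held 783 of 867 UMIs. Sprr1a lost its call without SARAWT aristolochic acid 3 (log2 6.59, edgeR adjusted p = 0.336), in which 1 cell held 291 of 303 UMIs. The fitted sizes for S100a6 and Sprr1a depend on the prior count and are no bounds, since vehicle libraries held few or no UMIs. No group had the 4 samples needed to look for a library far from the others of its group.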

How the results depend on the processing

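The number of genes called with aristolochic acid in SARAWT was 0 with all libraries, 17 with DESeq2, 253 of 15773 without the filter on low counts (133 higher, 120 lower), 2 with at most 1 UMI of Slc34a1 and of Lrp2, and 1 with stricter cell limits (500 genes or more, mitochondrial share up to 20%). For genotype with vehicle (9 called) the counts were 15 with DESeq2, 134 without the filter (102 higher, 32 lower), 16 with the limit on Slc34a1 and Lrp2, 14 without predicted doublets, and 0 each with those stricter limits, with cells thinned to 1500 UMIs (where C1qb turned to -0.42) and with vehicle libraries alone. In the thinned setting the Ptprc limit was read from the thinned counts, so cells with Ptprc UMIs could enter. With Slc12a1 left out of the gate, 1 gene of 9521 was called for genotype. For the genotype difference in effect (0) the counts were 6 with DESeq2, 105 without the filter and 3 without shared barcodes. Against proximal tubule cells (3) they were 1 with DESeq2, 62 without the filter, 9 with at least 5 UMIs of Slc12a1 and of Umod, 5 without predicted doublets and 0 without the library block. Against distal convoluted tubule cells (0) they were 1 with DESeq2, 62 without the filter and 1 with at least 5 UMIs of both genes. Leaving out 1 library gave 0 to 78 calls with aristolochic acid (78 without SARAWT vehicle 3, 1 each without either fitted aristolochic acid library), 0 to 10 for genotype (0 without SARAWT vehicle 1 or 2, 3 without SARATg vehicle 2), 0 to 3 for the difference in effect (3 without SARAWT vehicle 3, 1 without SARAWT aristolochic acid 3), 2 to 260 against proximal tubule cells (260 without SARAWT vehicle 3, 12 and 22 without SARAWT vehicle 1 and 2), and 0 to 18 against distal convoluted tubule cells (18 and 3 without the libraries labelled SARAWT aristolochic acid 1 and 3, 2 without SARAWT vehicle 3). In these fits a lone library of a group is assumed to vary like the others. The share difference ran from -0.280 to 0.00655 percentage points with 1 library left out, turning without SARAWT vehicle 2 (0.00655), and was 1.22 among cells without Ptprc.

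The alternatives that follow, and the fits within proximal and distal convoluted tubule cells without SARAWT vehicle 3, were added after the data were seen. At most 2 UMIs of leukocyte, endothelial and stromal markers gave 1 call with aristolochic acid, 0 for genotype (H2-Aa -1.58, Cd74 -0.61) and 14 against proximal tubule cells. Leaving out the cell with the most UMIs of each library gave 24, 4 for the difference in effect, 9 against proximal and 2 against distal convoluted tubule cells. Leaving out the cell with the most injury UMIs gave 5 for the difference in effect, and together with SARAWT vehicle 3 it gave 55 with aristolochic acid and 9 for the difference in effect. Leaving out both libraries that go against their genotype label gave 1 call with aristolochic acid, and a minimum of 5 cells gave 1 for the difference in effect. Mt2 turned from -0.27 with all libraries to 2.88 without SARAWT vehicle 3 (-0.84 to 2.88 with 1 library left out) and to 2.80 without that library and the injury-rich cells. Of 205 list genes with 4951 values over the alternatives, 4850 stayed on their side of the threshold, 99 newly passed, 2 reversed with a call, and the sign differed in 360. The causes were not tested.

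Same-numbered libraries had r of -0.034 and -0.095 for SARAWT vehicle with aristolochic acid 1 and 3, and 0.254 and -0.207 for SARAWT with SARATg vehicle 1 and 2, values that with 2 libraries in a group are mirrored by those of the other numbers. Neither these values nor the labels show that the numbers pair the libraries, and 2 pairs cannot settle it. With a replicate block 2 genes were called with aristolochic acid, 13 for genotype and 4 for the difference in effect, and the share difference was -0.134 (exact permutation p = 0.75, where the smallest is 0.25).

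Depth limits the members' values. A library of 30 cells gives 1 large cell much weight, 7 cells gave 1 library too little for a fit, and 3 UMIs amount to up to 77.5 CPM there. Genes below the filter, such as those of the cell cycle, were not measured well enough to test.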

Other observations

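The summed level of 16 proximal tubule markers overlapped between SARAWT vehicle and aristolochic acid in thick ascending limb cells, with SARAWT vehicle 3 below both fitted aristolochic acid libraries. All 16 were tested, all 16 had a log2 fold change below 0 with a median of -2.19 (all genes -0.03), none passed an adjusted p of 0.05 (edgeR), and 5 had an unadjusted p under 0.05, as did 7.61% of all genes tested. Their sum was 12687, 7669 and 141 CPM in SARAWT vehicle 1, 2 and 3 and 2000.5 and 1013 in the libraries labelled SARAWT aristolochic acid 1 and 3, and proximal tubule cells were 75.0%, 69.1% and 11.5% of the kept cells in the former and 5.90% and 8.66% in the latter. The part of free RNA in these levels was not tested.

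SARATg vehicle 2 held Lcn2 at 517 CPM with a UMI in 52.2% of members, and SARATg vehicle 1 at 16.7 with a UMI in 3.57%, so vehicle libraries of both genotypes differed in Lcn2 by a larger fold than the aristolochic acid libraries did among themselves. Spp1 was also highest in SARAWT vehicle 3, at 1844, 3781 and 32743 CPM in SARAWT vehicle, 13176 and 10647 in the libraries labelled SARAWT aristolochic acid 1 and 3, 1572 and 10150 in SARATg vehicle, and 15833 in the library labelled SARATg aristolochic acid 1.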
